A study of Arabidopsis thaliana with 18 samples.

Results

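The genes described here encode proteins that loosen or modify the plant cell wall: the expansins (EXPA and EXPB), the expansin-like proteins (EXLA and EXLB), the xyloglucan endotransglucosylase/hydrolases (XTH), the glycoside hydrolase family 9 endoglucanases (GH9) and the trichome birefringence-like proteins (TBL). Members were the probe sets of the Affymetrix ATH1 array whose annotation gave 1 gene with such a symbol. Their signal also had to exceed the array's own 40th percentile in 3 or more of the 18 arrays. A probe set is a group of short probes that stands for a gene, and where a gene had several the brightest was to be kept, but each gene here had 1. The annotation named 64 genes of these families, and 37 of them passed, among 15261 probe sets tested of which 8237 carried the name of 1 gene (8164 distinct genes). They were 7 of 10 EXPA, 2 of 4 EXPB, 2 of 3 EXLA, 1 of 1 EXLB, 5 of 9 XTH, 5 of 15 GH9 and 15 of 22 TBL genes. The families hold further genes in Arabidopsis that the annotation used here does not name, so the counts cover the named ones. Of the 37, 20 lay above the percentile in all 18 arrays. EXPB1, GH9C1 and TBL34 passed through acetone arrays alone, so the filter itself required them to be lower with the compounds, and no count over the members that passed is used as support.

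The primary wall of a plant cell is a network of cellulose microfibrils held in xyloglucan and pectin, and it has to yield before the cell can enlarge. Expansins loosen that network without cutting it, XTH enzymes cut xyloglucan chains and rejoin them, and GH9 enzymes hydrolyse glucan chains with cellulose-like linkages. TBL proteins act on the acetyl groups of wall polysaccharides, and several of them are xylan or mannan acetyltransferases. In roots these families are known for their part in the elongation zone and, for some expansins, in root hairs.

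The samples were root cultures of wild type Arabidopsis thaliana, ecotype Col-0, kept without light at 25 °C in Gamborg's medium and used at an age of 14 days. They had received the solvent acetone, fenclorim, or a compound given only as CMP, for 4 h or 24 h, with 3 arrays in each of the 6 groups. Fenclorim is a chlorinated phenylpyrimidine sold as a safener, which protects rice from herbicide injury, and the series title names its safening of Arabidopsis as the subject. The labels give no dose and do not say what CMP stands for, so the compounds are compared by time but not by matched dose. Replicates are numbered, but nothing says that they were separate cultures. The p-values therefore measure only how far these arrays scatter, and that scatter may be technical.

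The authors' signals are on a linear scale with a common trimmed mean, and the median signal per array was 35.2 to 40.8 in acetone, 27.1 to 31.5 in fenclorim and 27.8 to 35.0 in CMP. The first principal component, with 45.6% of the variance, separated acetone from both compounds, and on the second fenclorim 24 h replicate 2, fenclorim 4 h replicate 3 and CMP 4 h replicate 2 lay apart from their groups. Counts of members are therefore given with and without these 3 arrays, together with the members whose call against acetone changed. Of 62 markers of root cell types and of green tissue chosen for a check of the tissue, 3 were named on the array, so the identity of the cells could be checked only in part. RCA, the rubisco activase of green tissue, was well above the percentile in all 18 arrays, with 1766 to 2761 in acetone, 843 to 2116 in fenclorim and 358 to 1498 in CMP, the lowest values being those of CMP at 24 h. The root hair expansins EXPA7 and EXPA18 lay above the percentile in 2 and 6 arrays. Whether a shift in cell types had a part in any result below was not tested, and in whole cultures fewer cells of a type and less RNA per cell cannot be told apart.

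Against acetone, most of the members had a lower mean with both compounds and at both times. Of the 37, 11 were called lower in all 4 comparisons, beside 9.76% of all tested probe sets. The counts below include EXPB1, GH9C1 and TBL34, which the filter itself required to be lower. Differences are those of mean log2 signals ± SE, from 3 arrays in each group. Rose and fell are used for genes whose limma p, adjusted by the Benjamini-Hochberg method over all 15261 probe sets, was under 0.05. After 4 h of fenclorim 22 of 37 members fell and 1 rose, where 25.0% of all tested probe sets fell and 14.4% rose. After 24 h of fenclorim 22 fell and 0 rose, against 27.7% and 14.2% of all. After 4 h of CMP 21 fell and 1 rose, against 23.3% and 13.8%, and after 24 h 22 fell and 0 rose, against 25.7% and 17.3%. At an unadjusted p under 0.05, 24, 25, 26 and 28 of 37 members differed in these comparisons. Of the 15261 probe sets 7268, 7791, 7090 and 7650 did. The median log2 difference of the members was -1.47, -1.44, -1.35 and -1.39 in the same order, beside -0.23, -0.24, -0.25 and -0.13 over all tested probe sets.

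Scaling moved these counts. With each array centred on its median, 15, 15, 17 and 19 members fell, where 11.5%, 10.6%, 10.6% and 16.2% of all probe sets fell, and the median over all probe sets became 0.11, 0.25, 0.04 and 0.14. The members' median minus that over all probe sets, a difference that centring cannot alter, was -1.23, -1.20, -1.09 and -1.26 as deposited, and -1.16, -0.95, -1.16 and -1.25 after quantile normalization. The share of all calls that were higher was 36.5%, 33.8%, 37.2% and 40.2% as deposited and 66.5%, 74.7%, 65.1% and 61.4% after median centring. Without the 3 arrays that lay apart, 23, 24, 25 and 31 members fell, against 27.6%, 35.0%, 25.0% and 30.7% of all. Members called lower against acetone there but not with all 18 arrays were EXPA18, GH9B13 and GH9C1 with fenclorim at 4 h, TBL30 and TBL41 with fenclorim at 24 h, and EXPA18, GH9B8, GH9B13 and TBL36 with CMP at 4 h. With CMP at 24 h they were EXPA18, EXPB1, GH9B8, GH9B13, GH9C1, TBL23, TBL30, TBL35 and TBL36. None of the 3 arrays left out belongs to the CMP or acetone group at 24 h. The differences with CMP at 24 h were therefore unchanged, and only their errors and adjusted p differed. TBL18 and TBL23 were no longer called with fenclorim at 4 h.

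**Figure D1:**
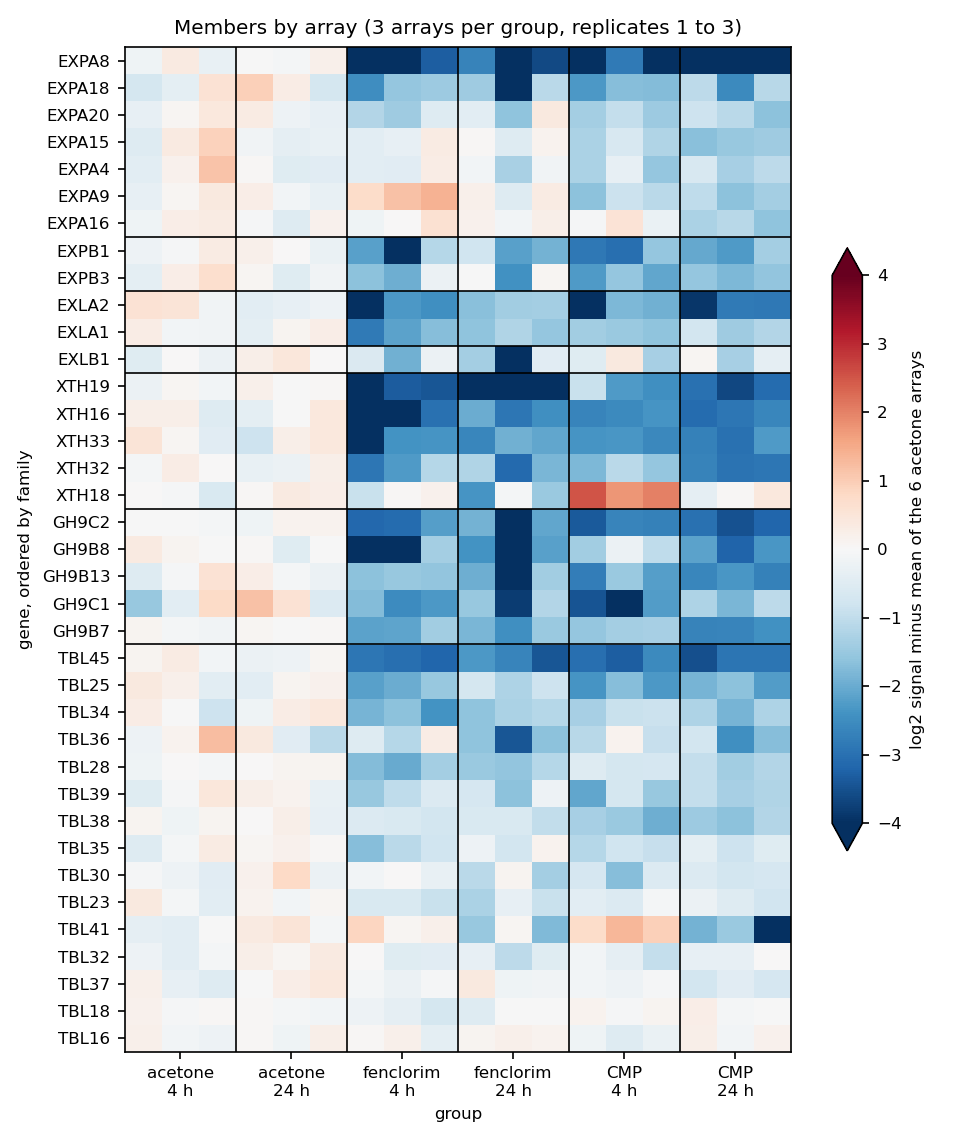
Log2 signal of the 37 members in each of the 18 arrays, minus the mean of the 6 acetone arrays, with genes in rows ordered by family and arrays in columns ordered by group (replicates 1 to 3); blue is lower and red higher, and the colour scale ends at 4 in either direction. Most rows are blue in the compound columns, EXPA9 is red in fenclorim at 4 h and XTH18 is red in CMP at 4 h, and fenclorim 24 h replicate 2 is darker than its neighbours for EXLB1, EXPA18, GH9B8, GH9B13 and GH9C2.

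The families differed in the size of their median change, which is a description here and was not tested between families. The 5 XTH genes had median log2 differences of -3.04 (4 h) and -2.16 (24 h) with fenclorim, and of -1.78 and -2.75 with CMP. The 5 GH9 genes had -1.83, -2.73, -2.17 and -2.53 in that order, and the 15 TBL genes -0.67, -0.86, -0.72 and -1.18. The 7 EXPA genes lay at -0.49 and -0.23 with fenclorim and at -1.32 and -1.28 with CMP, and after median centring their value for fenclorim at 24 h turned to 0.27. Both EXPB genes together lay at -2.25, -1.10, -2.33 and -1.66, and both EXLA genes at -3.11, -1.30, -2.31 and -1.9952. The medians of EXPB, GH9 and TBL include EXPB1, GH9C1 and TBL34, which passed through acetone arrays alone. Without fenclorim 24 h replicate 2 the medians for fenclorim at 24 h were -1.74 for GH9, 0.17 for EXPA and -0.56 for EXPB. Without all 3 arrays that lay apart those for fenclorim at 4 h were -2.97 for EXPB and -3.54 for EXLA. Within acetone the family medians of single arrays stayed between -0.49 and 0.50 around the acetone mean, and in the XTH genes every compound array lay at -1.79 or lower.

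**Figure D2:**
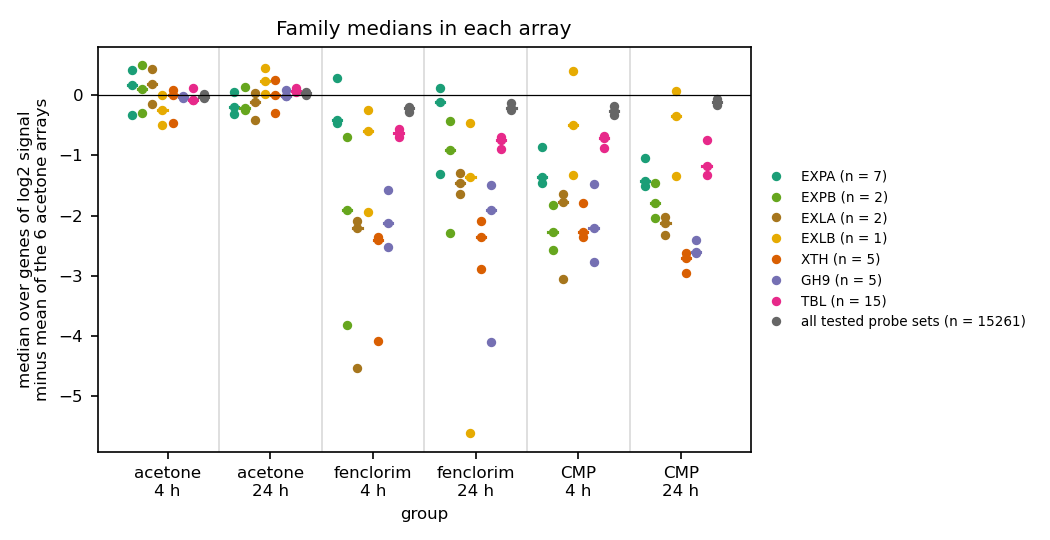
Median over the genes of each family of the log2 signal minus the mean of the 6 acetone arrays, 1 point per array and a short line at the median of the 3 arrays of a group, for 6 groups, 7 families and all 15261 tested probe sets. XTH, GH9 and EXLA lie well below the points of all tested probe sets in every compound group, TBL lies below them by less, and EXPA lies near them in fenclorim (medians of -0.42 and -0.11) and lower in CMP (-1.35 and -1.43).

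Among the alpha-expansins, the proteins with the best established loosening activity, EXPA8 had the largest fall. EXPA8 (AT2G40610) had signals of 197, 286 and 181 in acetone at 4 h and 218, 211 and 253 at 24 h. They were 6.74, 12.4 and 22.7 in fenclorim at 4 h and 34.7, 6.26 and 18.4 at 24 h, and 10.6, 31.3 and 12.5 in CMP at 4 h and 7.94, 11.7 and 2.42 at 24 h. All 12 compound arrays lay below all 6 acetone arrays. The log2 differences were -4.13 ± 0.62 (adjusted p = 7.37e-05) at 4 h of fenclorim, -3.84 ± 0.62 (adjusted p = 0.000205) at 24 h, -3.76 ± 0.62 (adjusted p = 0.000179) at 4 h of CMP and -5.22 ± 0.62 (adjusted p = 5.65e-06) at 24 h. The compound signals were low, and with 16 added to every signal the differences shrank to -2.9963, -2.84, -2.82 and -3.40, all still called.

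EXPA9 moved in opposite directions with the compounds. EXPA9 (AT5G02260) had signals of 61.5, 80.4 and 100.01 in acetone at 4 h and 91.4, 71.7 and 61.9 at 24 h, 128, 172 and 201 in fenclorim at 4 h and 88.5, 53.5 and 95.8 at 24 h, and 24.3, 42.3 and 36.4 in CMP at 4 h and 37.6, 24.4 and 30.01 at 24 h. The fenclorim 4 h arrays were higher than every acetone array, those of fenclorim at 24 h overlapped acetone, and all 6 CMP arrays were lower than every other array. EXPA9 rose by 1.05 ± 0.28 with fenclorim at 4 h (adjusted p = 0.007), was at 0.05 ± 0.28 (adjusted p = 0.893) at 24 h, and fell with CMP, at -1.24 ± 0.28 (adjusted p = 0.00231) and -1.29 ± 0.28 (adjusted p = 0.0013). No array left out in turn, and none of the other settings tried, ended these calls.

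EXPA15 and EXPA4 were called against acetone with CMP and not with fenclorim. EXPA15 (AT2G03090) had signals of 62.4, 114 and 169 in acetone at 4 h and 81.2, 69.4 and 72.9 at 24 h, 66.5, 70.7 and 112 in fenclorim at 4 h and 92.4, 62.8 and 97.3 at 24 h, and 36.6, 57.4 and 38.2 in CMP at 4 h and 27.9, 31.1 and 33.1 at 24 h. The CMP arrays lay below all acetone arrays, and those of fenclorim overlapped acetone. Its differences were -1.30 ± 0.30 (adjusted p = 0.00304) and -1.28 ± 0.30 (adjusted p = 0.00267) with CMP and -0.40 and 0.15, not called, with fenclorim. EXPA4 (AT2G39700) had signals of 174, 261 and 512 in acetone at 4 h and 242, 165 and 172 at 24 h, 175, 169.5 and 284 in fenclorim at 4 h and 215, 94.1 and 212 at 24 h, and 96.3, 183 and 80.1 in CMP at 4 h and 149.76, 93.1 and 112 at 24 h. In EXPA4 the groups overlapped in most comparisons, acetone 4 h replicate 3 being the highest array. Its fall with CMP at 4 h, -1.35 ± 0.40 (adjusted p = 0.0146), was lost without acetone 4 h replicate 3 (-0.92) or without CMP 4 h replicates 1 or 3 (-1.23 and -1.10), and after median centring.

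Among the other alpha-expansins, EXPA16 (AT3G55500) fell with CMP at 24 h, -1.19 ± 0.31 (adjusted p = 0.00463), from 13.2 to 20.9 in acetone at 24 h to 6.18 to 8.70, and was not called in the other comparisons with acetone. That call was lost under quantile normalization, at -0.84. EXPA20 (AT4G38210) had 36.9 to 62.4 in acetone and 14.8 to 60.9 with the compounds. It was at -1.11 ± 0.41 and -0.48 ± 0.41 with fenclorim and -1.32 ± 0.41 and -1.13 ± 0.41 with CMP, called in all but the second. Each of these 3 calls was lost without at least 3 of the 18 arrays taken singly, and after median centring. EXPA18 (AT1G62980), an expansin of root hairs, had 21.3 to 67.5 in acetone and 0.856 to 17.0 with the compounds. It fell with fenclorim at 24 h, -2.79 ± 0.83 (adjusted p = 0.0138), where replicate 2 held 0.856, and without that array the difference was -1.43 and still called. That call was lost without acetone 24 h replicate 1 (-2.41), and when only the arrays compared were fitted (adjusted p = 0.0813). With fenclorim at 4 h and CMP it lay at -1.66, -1.74 and -1.73, not called, with no overlap with acetone. With the 3 arrays that lay apart left out these were -1.85, -1.84 and -1.73 and called (adjusted p = 0.0141, 0.0158 and 0.00905), and with 16 added to every signal they were -0.87, -0.91 and -0.99 and called too.

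Beta-expansins are the second class with loosening activity, best known from grass pollen. EXPB3 (AT4G28250) had signals of 66.1, 103 and 137 in acetone at 4 h and 90.5, 61.1 and 77.7 at 24 h, 27.6, 22.2 and 72.7 in fenclorim at 4 h and 84.3, 16.1 and 90.1 at 24 h, and 17.7, 29.4 and 20.1 in CMP at 4 h and 29.6, 24.6 and 29.0 at 24 h. The CMP arrays were all below acetone, and 3 of the 6 fenclorim arrays lay within the acetone range. It fell with fenclorim at 4 h, -1.47 ± 0.53 (adjusted p = 0.0384), and with CMP at both times, -2.16 ± 0.53 (adjusted p = 0.00457) and -1.45 ± 0.53 (adjusted p = 0.0372). The fenclorim call was lost without any 1 of acetone 4 h replicates 2 and 3 or fenclorim 4 h replicates 1 and 2 (-1.43 to -1.13). The CMP call at 24 h was lost without any 1 of acetone 24 h replicates 1, 2 and 3 or CMP 24 h replicates 1, 2 and 3 (-1.60 to -1.32). Quantile normalization ended both of these calls, and so did median centring. EXPB1 (AT2G20750), which passed through acetone arrays alone, had 21.3, 23.96 and 30.9 in acetone at 4 h and 28.3, 24.7 and 20.4 at 24 h, 5.46, 0.474 and 11.1 in fenclorim at 4 h and 14.1, 5.47 and 6.65 at 24 h, and 3.39, 3.05 and 8.46 in CMP at 4 h and 6.00, 5.12 and 9.60 at 24 h. No compound array reached the acetone range. It was called with fenclorim at 4 h, -3.03 ± 0.82 (adjusted p = 0.00797), or -1.69 without replicate 2 of that group, and with CMP at 4 h, -2.50 ± 0.82 (adjusted p = 0.0251). The second call was lost without acetone 4 h replicates 2 or 3 or CMP 4 h replicates 1 or 2 (-2.53 to -2.23), and after median centring (-2.21). With 16 added to every signal its 4 differences shrank to -0.96, -0.72, -0.98 and -0.82 and all were called.

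Expansin-like proteins share the expansin fold, and a loosening activity has not been established for them. EXLA1 (AT3G45970) had signals of 335, 249 and 244 in acetone at 4 h and 206, 289 and 323 at 24 h, 37.9, 61.2 and 82.9 in fenclorim at 4 h and 88.2, 118 and 92.5 at 24 h, and 103, 97.6 and 88.3 in CMP at 4 h and 162, 101 and 119 at 24 h. All compound arrays lay below all acetone arrays, and the fenclorim 4 h arrays were the lowest. EXLA1 fell with fenclorim, at -2.24 ± 0.26 (adjusted p = 4.99e-06) and -1.44 ± 0.26 (adjusted p = 0.00047), and with CMP, at -1.51 ± 0.26 (adjusted p = 0.000242) and -1.102 ± 0.26 (adjusted p = 0.00245). EXLA2 (AT4G38400) had 74.8, 71.3 and 45.8 in acetone at 4 h and 37.5, 40.5 and 44.2 at 24 h, 0.659, 10.4 and 9.13 in fenclorim at 4 h and 15.96, 19.4 and 19.4 at 24 h, and 1.92, 14.5 and 13.3 in CMP at 4 h and 3.38, 7.06 and 6.93 at 24 h. It too lay below acetone in every compound array, with the lowest signals in replicate 1 of fenclorim and of CMP at 4 h. Its differences were -3.98 ± 0.85 (adjusted p = 0.00148), -1.16 ± 0.85 (adjusted p = 0.282), -3.12 ± 0.85 (adjusted p = 0.00847) and -2.89 ± 0.85 (adjusted p = 0.0111) for fenclorim and CMP at the 2 times, so that fenclorim at 24 h was not called. With 16 added to every signal the difference for fenclorim at 24 h was -0.73 and called (adjusted p = 0.0111). The call for CMP at 4 h was lost without CMP 4 h replicate 1 (-2.17).

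EXLB1 (AT4G17030), the single expansin-like B gene of Arabidopsis, had signals of 35.3, 49.8 and 41.8 in acetone at 4 h and 58.9, 68.2 and 50.7 at 24 h, 32.9, 13.0 and 41.9 in fenclorim at 4 h and 19.3, 1.01 and 35.9 at 24 h, and 35.4, 65.5 and 19.8 in CMP at 4 h and 52.1, 19.7 and 39.1 at 24 h. At 24 h the fenclorim arrays lay below acetone, with replicate 2 at 1.01, and in the other comparisons with acetone the arrays overlapped. Its only call, fenclorim at 24 h with -2.73 ± 0.90 (adjusted p = 0.0231), was lost without that array (-1.16), without acetone 24 h replicates 1 or 2, and after quantile normalization or median centring.

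**Figure D3:**
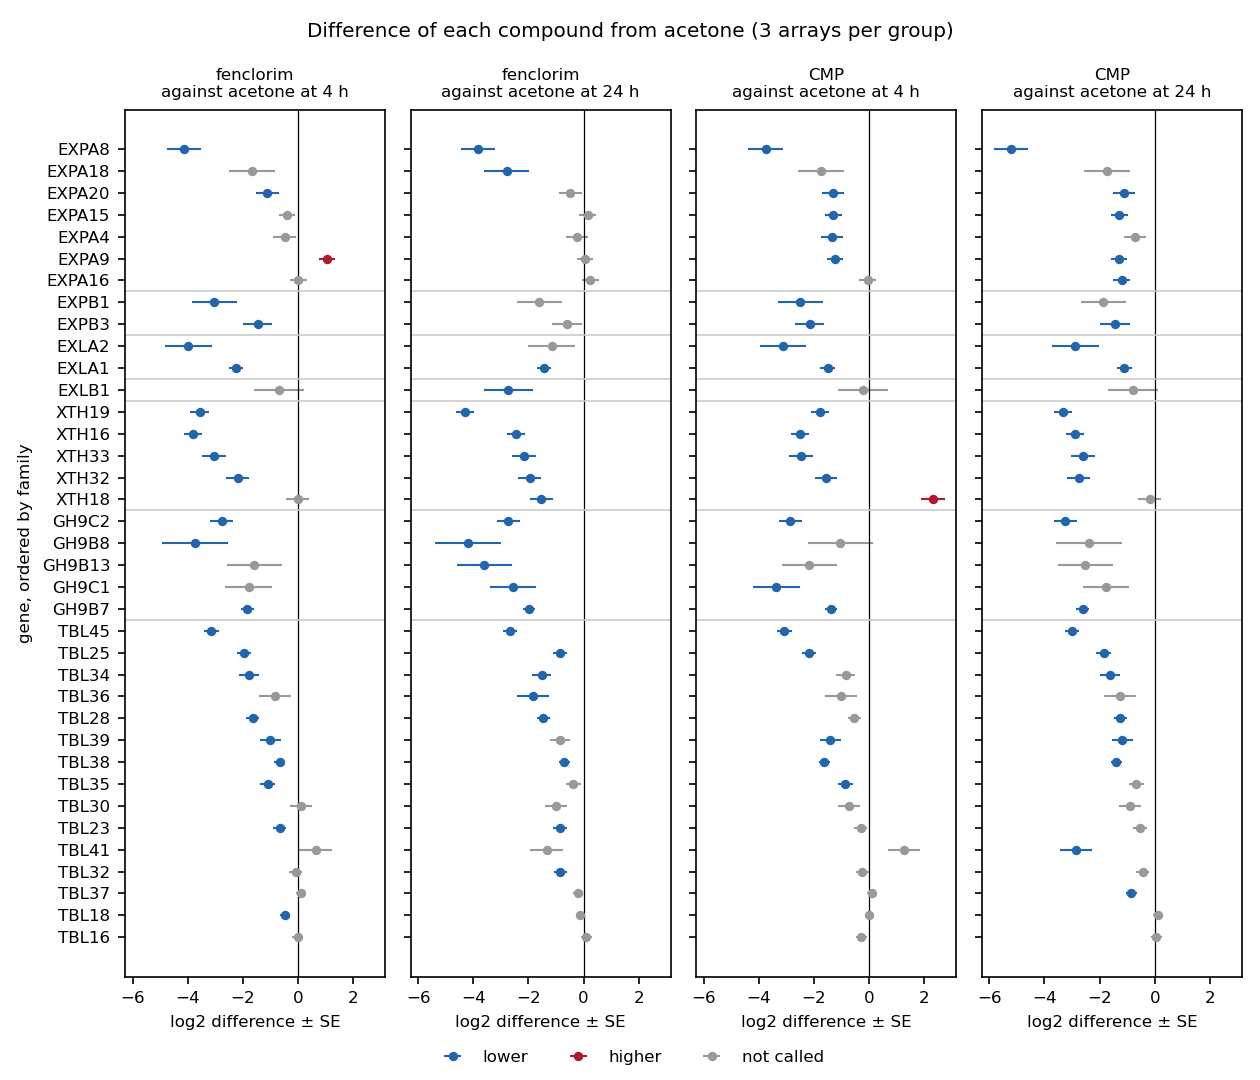
Log2 difference from acetone ± SE of each of the 37 members, in 4 panels for fenclorim and CMP at 4 h and 24 h (3 arrays per group); blue points fell, red points rose and grey points were not called. XTH16, XTH19, XTH32 and XTH33 lie left of 0 in all panels, and the 2 red points are EXPA9 with fenclorim at 4 h (1.05) and XTH18 with CMP at 4 h (2.31).

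Among the XTH genes, 4 of 5 fell in every comparison with acetone, where 9.76% of all tested probe sets did. XTH16 (AT3G23730) had signals of 402, 401 and 237 in acetone at 4 h and 260.4, 335 and 455 at 24 h, 20.00, 16.1 and 42.7 in fenclorim at 4 h and 85.6, 45.6 and 61.6 at 24 h, and 54.9, 57.7 and 66.3 in CMP at 4 h and 39.9, 45.3 and 55.2 at 24 h. Every compound array lay below acetone, and fenclorim 4 h replicates 1 and 2 were the lowest. Its differences were -3.81 ± 0.33 (adjusted p = 1.8e-07) and -2.46 ± 0.33 (adjusted p = 3.55e-05) with fenclorim and -2.50 ± 0.33 (adjusted p = 1.74e-05) and -2.88 ± 0.33 (adjusted p = 3.63e-06) with CMP, a fall of 14.1-fold in the first. XTH32 (AT2G36870), of the subgroup that holds predicted xyloglucan hydrolases, fell from 388 to 587 in acetone to 55.2 to 222, at -2.19 ± 0.41, -1.95 ± 0.41, -1.57 ± 0.41 and -2.75 ± 0.41 in the same order. XTH33 (AT1G10550), predicted to be anchored in the membrane, fell from 42.5 to 108 in acetone to 4.09 to 19.7, at -3.04 ± 0.45, -2.16 ± 0.45, -2.47 ± 0.45 and -2.60 ± 0.45.

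XTH18 and XTH19 are adjacent loci, close in sequence and both known from roots, and their levels diverged with CMP at 4 h. XTH19 (AT4G30290) had signals of 227, 283 and 247 in acetone at 4 h and 309, 267 and 278 at 24 h, 14.2, 26.7 and 24.9 in fenclorim at 4 h and 15.7, 12.9 and 14.6 at 24 h, and 144, 55.2 and 48.8 in CMP at 4 h and 34.0, 21.5 and 31.7 at 24 h. All compound arrays were below acetone, and those of fenclorim were below those of CMP at both times. Its differences were -3.57 ± 0.33 (adjusted p = 4.13e-07) and -4.31 ± 0.33 (adjusted p = 9.96e-08) with fenclorim and -1.78 ± 0.33 (adjusted p = 0.000463) and -3.32 ± 0.33 (adjusted p = 8.66e-07) with CMP. XTH18 (AT4G30280) had signals of 187, 181 and 121 in acetone at 4 h and 192, 241 and 224 at 24 h, 102, 192 and 209 in fenclorim at 4 h and 36.5, 176 and 66.9 at 24 h, and 1067, 629 and 754 in CMP at 4 h and 146, 193 and 248 at 24 h. The CMP 4 h arrays stood above every other array, and at 24 h CMP overlapped acetone. XTH18 rose with CMP at 4 h, 2.31 ± 0.42 (adjusted p = 0.000413), a 4.97-fold rise, and was at -0.19 ± 0.42 (adjusted p = 0.753) at 24 h. With fenclorim it was at -0.0046 ± 0.42 (adjusted p = 0.994) at 4 h and fell at 24 h, -1.53 ± 0.42 (adjusted p = 0.00933), a call lost without replicate 1 of that group (-1.004). The pair's probe sets gave opposite signs against acetone with CMP at 4 h. XTH19 too was highest there among the compound groups, at 48.8 to 144. How far the probes of these related genes read each other's transcripts was not tested.

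**Figure D4:**
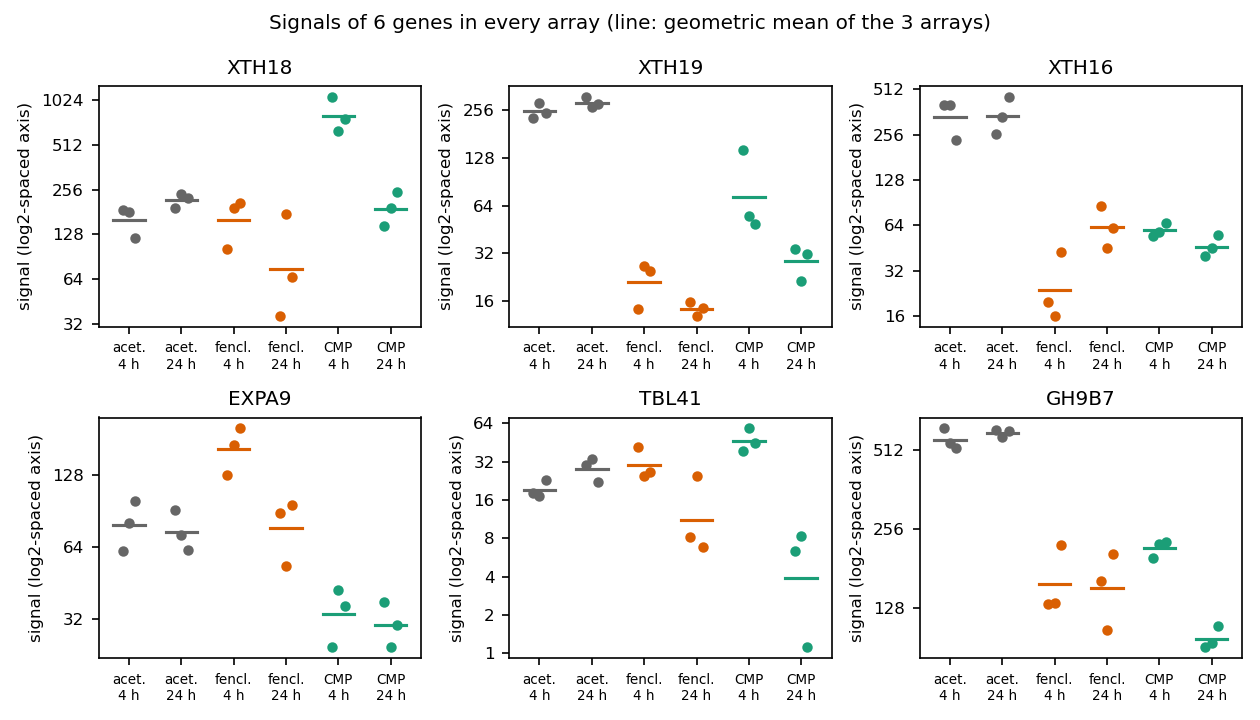
Signals of XTH18, XTH19, XTH16, EXPA9, TBL41 and GH9B7 in every array, 1 point per array, with a line at the geometric mean of the 3 arrays of a group, on axes with log2 spacing. XTH18 is highest in CMP at 4 h (629 to 1067) while XTH19 is below acetone in every compound group, EXPA9 is highest in fenclorim at 4 h (128 to 201) and lowest in CMP (24.3 to 42.3), and TBL41 is at 38.6 to 58.3 in CMP at 4 h and 1.11 to 8.37 at 24 h.

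The GH9 endoglucanases were all lower than acetone in mean with both compounds. GH9B7 (AT1G75680) had signals of 622, 548 and 523 in acetone at 4 h and 616, 575 and 605 at 24 h, 133, 133 and 222 in fenclorim at 4 h and 163, 105 and 206 at 24 h, and 198, 224 and 229 in CMP at 4 h and 90.4, 93.6 and 109 at 24 h. Acetone arrays were tightly grouped, all compound arrays lay below them, and the CMP 24 h arrays overlapped fenclorim 24 h replicate 2 at the low end. GH9B7 fell with fenclorim, -1.83 ± 0.22 (adjusted p = 7.74e-06) and -1.98 ± 0.22 (adjusted p = 6.07e-06), and with CMP, -1.38 ± 0.22 (adjusted p = 0.00013) and -2.62 ± 0.22 (adjusted p = 1.88e-07). GH9C2 (AT1G64390), of the subclass with a carbohydrate-binding module, had 300.0, 306 and 293 in acetone at 4 h and 269.6, 336 and 341 at 24 h, 34.9, 36.5 and 66.5 in fenclorim at 4 h and 81.8, 17.8 and 72.8 at 24 h, and 30.1, 49.2 and 47.2 in CMP at 4 h and 38.3, 27.6 and 34.4 at 24 h. The compound arrays were again all below acetone, the lowest being fenclorim 24 h replicate 2. Its differences were -2.77 ± 0.42 (adjusted p = 7.41e-05) and -2.73 ± 0.42 (adjusted p = 0.000125) with fenclorim and -2.86 ± 0.42 (adjusted p = 5.17e-05) and -3.24 ± 0.42 (adjusted p = 1.2e-05) with CMP.

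Single arrays weighed more in the other GH9 genes. GH9B8 (AT2G32990) had signals of 146, 121 and 112 in acetone at 4 h and 116, 80.8 and 112 at 24 h, 5.06, 3.62 and 44.3 in fenclorim at 4 h and 21.6, 0.312 and 25.0 at 24 h, and 43.2, 95.2 and 55.3 in CMP at 4 h and 25.8, 12.3 and 22.6 at 24 h. Fenclorim 4 h replicates 1 and 2 and fenclorim 24 h replicate 2 were far below the rest, and CMP 4 h replicate 2 reached into the range of acetone at 24 h. Its falls with fenclorim were -3.75 ± 1.20 (adjusted p = 0.0199) and -4.20 ± 1.20 (adjusted p = 0.0111). The first was lost without acetone 4 h replicate 1 or fenclorim 4 h replicates 1 or 2 (-3.64 to -3.07), and the second was -2.13 without fenclorim 24 h replicate 2. Fitting only the arrays compared ended the second call (adjusted p = 0.0657). With CMP it was at -1.04 ± 1.20 (adjusted p = 0.521) and -2.40 ± 1.20 (adjusted p = 0.118), called without the 3 arrays that lay apart at -1.36 and -2.40. GH9C1 (AT1G48930), an endoglucanase of root hairs that passed through acetone arrays alone, had 8.33, 17.6 and 40.3 in acetone at 4 h and 53.1, 35.3 and 16.1 at 24 h, 7.19, 4.11 and 4.84 in fenclorim at 4 h and 8.28, 1.69 and 10.5 at 24 h, and 2.17, 0.489 and 5.09 in CMP at 4 h and 10.1, 6.61 and 11.5 at 24 h. The acetone arrays spread over a wide range, and the compound arrays lay below those of acetone at the same time. It fell with fenclorim at 24 h, -2.56 ± 0.84 (adjusted p = 0.023), and with CMP at 4 h, -3.36 ± 0.84 (adjusted p = 0.00488). The fenclorim call was lost without acetone 24 h replicates 1 or 2 or fenclorim 24 h replicate 2 (-2.47 to -1.74), and after quantile normalization or median centring. With fenclorim at 4 h and CMP at 24 h it was not called, at -1.79 and -1.77, and without the 3 arrays that lay apart both were, at -1.74 and -1.77 (adjusted p = 0.0434 and 0.0208). GH9B13 (AT4G02290) had 71.8 to 152 in acetone and 0.566 to 38.8 with the compounds, with no overlap. It fell with fenclorim at 24 h, -3.60 ± 0.999 (adjusted p = 0.00957), or -1.66 without replicate 2. That call was lost when only the arrays compared were fitted (adjusted p = 0.083). In the other 3 comparisons it was not called, at -1.59, -2.17 and -2.53. These were -1.60, -2.50 and -2.53 and called (adjusted p = 0.000548, 1.13e-05 and 2.48e-06) without the 3 arrays that lay apart, and with 16 added to every signal they were -1.25, -1.59 and -1.80 and called too.

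TBL genes made up the largest family, and 9, 8, 5 and 8 of 15 fell in the 4 comparisons with acetone, where 25.0%, 27.7%, 23.3% and 25.7% of all probe sets did. After median centring these counts were 4, 3, 4 and 7, where 11.5%, 10.6%, 10.6% and 16.2% of all fell, and TBL16 rose with fenclorim at 24 h, at 0.60 (0.56 with quantile normalization). TBL45 (AT2G30010) had signals of 269, 314 and 232 in acetone at 4 h and 211, 214 and 262 at 24 h, 33.8, 31.0 and 27.4 in fenclorim at 4 h and 49.9, 39.6 and 23.2 at 24 h, and 30.9, 25.3 and 42.1 in CMP at 4 h and 21.9, 32.6 and 32.6 at 24 h. All compound arrays lay below all acetone arrays and overlapped one another. TBL45 fell with fenclorim, at -3.14 ± 0.26 (adjusted p = 1.24e-07) and -2.67 ± 0.26 (adjusted p = 1.53e-06), and with CMP, at -3.07 ± 0.26 (adjusted p = 1.43e-07) and -2.997 ± 0.26 (adjusted p = 2.47e-07). TBL38 (AT1G29050) fell in all 4 comparisons too, from 92.2 to 135 in acetone to 58.7 to 78.4 with fenclorim and 29.7 to 51.2 with CMP. Its fenclorim differences of -0.67 and -0.70 were -0.32 and -0.21 after median centring and no longer called. The second was also lost without acetone 24 h replicate 2 or fenclorim 24 h replicate 3 (-0.58 each). Those with CMP, -1.63 and -1.39, stayed called.

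Of the mannan acetyltransferases, TBL25 and TBL23 passed the filter. TBL25 (AT1G01430) had signals of 639, 568 and 368 in acetone at 4 h and 365, 528 and 549 at 24 h, 109, 124 and 172 in fenclorim at 4 h and 305, 208 and 276 at 24 h, and 96.6, 150.04 and 101 in CMP at 4 h and 136, 156 and 105 at 24 h. The compound arrays were below acetone throughout, and fenclorim at 24 h was the highest compound group. TBL25 fell with fenclorim, -1.95 ± 0.26 (adjusted p = 1.87e-05) and -0.86 ± 0.26 (adjusted p = 0.0138), and with CMP, -2.17 ± 0.26 (adjusted p = 5.45e-06) and -1.86 ± 0.26 (adjusted p = 2.3e-05). The call for fenclorim at 24 h was lost without acetone 24 h replicates 2 or 3 (-0.78 and -0.76) and after median centring (-0.37). TBL23 (AT4G11090) fell with fenclorim, -0.67 ± 0.25 and -0.86 ± 0.25, and was not called with CMP (-0.31 and -0.54). The fenclorim calls were lost after median centring, and without 7 and 1 of the 18 arrays taken singly, fenclorim 24 h replicate 1 being the one in the second case. The 7 included acetone 24 h replicate 3 and CMP 24 h replicate 2, outside the comparison, which left the difference at -0.67.

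Of the genes described as xylan acetyltransferases, TBL28, TBL30, TBL32, TBL34 and TBL35 passed. TBL28 (AT2G40150) had signals of 29.4, 33.8 and 31.7 in acetone at 4 h and 33.5, 36.3 and 36.0 at 24 h, 9.997, 8.17 and 12.9 in fenclorim at 4 h and 12.0, 11.3 and 15.2 at 24 h, and 23.5, 20.5 and 21.1 in CMP at 4 h and 17.3, 12.7 and 14.8 at 24 h. All compound arrays were below acetone, and the CMP 4 h arrays were higher than all other compound arrays. It fell with fenclorim, -1.63 ± 0.24 (adjusted p = 4.84e-05) and -1.47 ± 0.24 (adjusted p = 0.000189), and with CMP at 24 h, -1.25 ± 0.24 (adjusted p = 0.000439), and was at -0.54 ± 0.24 (adjusted p = 0.0812) at 4 h of CMP. Its neighbour on the chromosome, TBL30 (AT2G40160), was not called in any of the 4, at 0.11, -1.02, -0.72 and -0.91, or -1.45 and called with fenclorim at 24 h without replicate 2. TBL34 (AT2G38320) passed through acetone arrays alone, so the filter itself required it to be lower with the compounds. It was called in the same 3 comparisons as TBL28, at -1.78, -1.52 and -1.62. Its signals were 14.8 to 35.7 in acetone and 5.06 to 14.4 with the compounds. TBL35 (AT5G01620) fell at 4 h with fenclorim, -1.09 ± 0.27 (adjusted p = 0.00443), and with CMP, -0.86 ± 0.27 (adjusted p = 0.0197), and both calls were lost after median centring. The CMP call was also lost without acetone 4 h replicate 3 or CMP 4 h replicate 1 (-0.65 and -0.77). TBL32 (AT3G11030) fell with fenclorim at 24 h, -0.84 ± 0.24 (adjusted p = 0.0117), a call lost after median centring at -0.35.

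The remaining TBL genes have no activity stated here. TBL41 (AT3G14850) had signals of 18.1, 17.3 and 22.9 in acetone at 4 h and 29.99, 33.5 and 22.2 at 24 h, 42.1, 24.8 and 26.6 in fenclorim at 4 h and 8.23, 24.5 and 6.81 at 24 h, and 38.6, 58.3 and 44.8 in CMP at 4 h and 6.31, 8.37 and 1.11 at 24 h. At 4 h all fenclorim and CMP arrays were above acetone at that time, and at 24 h all CMP arrays were below it while fenclorim overlapped it. It fell with CMP at 24 h, -2.86 ± 0.59 (adjusted p = 0.000942), and was at 1.27 ± 0.59 (adjusted p = 0.104) at 4 h. With fenclorim it was at 0.65 ± 0.59 (adjusted p = 0.409) at 4 h and -1.34 ± 0.59 (adjusted p = 0.0788) at 24 h, and the second was called at -1.91 (adjusted p = 0.0189) without the 3 arrays that lay apart. With 16 added to every signal TBL41 was called higher with CMP at 4 h, at 0.83 (adjusted p = 0.00555). It was then also called lower with fenclorim at 24 h, at -0.65 (adjusted p = 0.0213). TBL37 (AT2G34070) fell with CMP at 24 h, -0.85 ± 0.19 (adjusted p = 0.0018), from 217 to 294 in acetone to 132 to 160. TBL36 (AT3G54260) fell with fenclorim at 24 h, -1.84 ± 0.57 (adjusted p = 0.018), a call lost without replicate 2 of that group (-1.23), without acetone 24 h replicate 1 (-1.44) and after median centring. TBL39 (AT2G42570) fell with fenclorim at 4 h, -1.001 ± 0.38 (adjusted p = 0.0438), and with CMP at both times, -1.41 and -1.18. Its fenclorim call was lost without any 1 of 10 arrays. These included arrays of acetone at 24 h and of CMP, outside the comparison, which left the difference at -1.001 (adjusted p = 0.0507 to 0.054). The call of TBL39 at 24 h of CMP was lost without any 1 of 3 arrays, and median centring ended both. TBL18 (AT4G25360) fell with fenclorim at 4 h, at -0.47 ± 0.17 (adjusted p = 0.0386), a call lost after median centring at -0.13 and without any 1 of 5 arrays, all 3 of acetone at 4 h and fenclorim 4 h replicates 2 and 3 (-0.52 to -0.34). TBL16 (AT5G20680) was within 28.3 to 48.0 in all 18 arrays and was not called in any comparison as deposited.

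The compounds were compared directly at each time, 1 pair at 2 times, with adjusted p over all tested probe sets. At 4 h 4 members were higher and 2 lower with CMP than with fenclorim, where 3.56% and 3.77% of all tested probe sets were. The 4 were XTH18, at 2.32 ± 0.42 (adjusted p = 0.00263), XTH19, at 1.79 ± 0.33 (adjusted p = 0.00295), XTH16, at 1.31 ± 0.33 (adjusted p = 0.0214), and TBL28, at 1.09 ± 0.24 (adjusted p = 0.00873). All 4 were higher in every CMP array than in any fenclorim array. The call for XTH16 was lost without any 1 of fenclorim 4 h replicates 1 and 2 and CMP 4 h replicates 1 and 3 (1.02 to 1.37), and that for TBL28 without fenclorim 4 h replicate 2 (0.93). The 2 lower members were EXPA9, at -2.29 ± 0.28 (adjusted p = 8.95e-05), and TBL38, at -0.96 ± 0.20 (adjusted p = 0.00682), with no overlap of arrays in either. Without the 3 arrays that lay apart 8 members were higher and 2 lower, against 6.62% and 5.32% of all, and EXLA1, GH9B7, XTH32 and GH9B8 joined the higher ones at 0.99, 0.68, 0.91 and 3.51.

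At 24 h 2 members were higher and 7 lower with CMP than with fenclorim, where 17.2% and 13.7% of all tested probe sets were. XTH18 was higher at 1.34 ± 0.42 (adjusted p = 0.025) and XTH19 at 0.99 ± 0.33 (adjusted p = 0.0323). Both calls were lost without fenclorim 24 h replicate 1 (0.81 and 1.05), replicate 3 or CMP 24 h replicate 3, that of XTH18 also without CMP 24 h replicate 2, and that of XTH19 without fenclorim 24 h replicate 2 or CMP 24 h replicate 1. After median centring that of XTH19 was lost too. The alpha-expansins EXPA9, EXPA15 and EXPA16 were lower with CMP, at -1.35 ± 0.28 (adjusted p = 0.0023), -1.43 ± 0.30 (adjusted p = 0.00265) and -1.43 ± 0.31 (adjusted p = 0.00283), with no overlap between the arrays of the compounds. TBL25 was lower at -0.99 ± 0.26 (adjusted p = 0.00881), TBL38 at -0.69 ± 0.20 (adjusted p = 0.0167) and TBL37 at -0.66 ± 0.19 (adjusted p = 0.0178). GH9B7 was lower at -0.64 ± 0.22 (adjusted p = 0.0369), a call lost without fenclorim 24 h replicates 1 or 3 or any 1 of the 3 CMP 24 h arrays (-0.73 to -0.43). That of TBL38 was lost without fenclorim 24 h replicate 1 or CMP 24 h replicate 2 (-0.63 and -0.58). That of TBL37 was lost without fenclorim 24 h replicate 1 (-0.47) or CMP 24 h replicates 1 or 3 (-0.60 and -0.63). After median centring 35.5% of all calls at 24 h were higher, against 55.7% as deposited. Without the 3 arrays that lay apart 2 members were higher and 15 lower, against 28.3% and 19.5% of all.

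Members with no call between the compounds often had wide intervals. EXPA8 differed by 0.38 at 4 h and -1.38 at 24 h, with 95% intervals of -0.95 to 1.70 and -2.70 to -0.06. TBL45 differed by 0.07 and -0.33, with narrower intervals of -0.49 to 0.62 and -0.88 to 0.23. XTH32 was at 0.62 (-0.25 to 1.499) and -0.81 (-1.68 to 0.07), and XTH33 at 0.57 (-0.38 to 1.51) and -0.44 (-1.39 to 0.50). Without fenclorim 24 h replicate 2 alone, 12 members were lower with CMP than with fenclorim at 24 h. EXPA20, EXPB3, EXPA8, GH9C2 and XTH32 were among them at -1.18, -1.66, -2.06, -1.22 and -1.34. The share of all probe sets that were lower is not given for this setting. That share rose from 13.7% as deposited to 19.5% without the 3 arrays that lay apart. The higher count is therefore not read as particular to these families.

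Time in acetone moved no member past the threshold. Between acetone at 24 h and at 4 h 0 of 37 members and 0% of the 15261 probe sets passed in limma, and at an unadjusted p under 0.05 1 member and 769 probe sets did. Whether an effect differed between the times was tested as the difference of the differences. For fenclorim 0 members passed, where 1.00% of all tested probe sets went up and 1.74% down. At an unadjusted p under 0.05, 8 of 37 members and 2912 of the 15261 probe sets differed. For CMP 0 members went up and 3 went down, beside 0.839% and 2.21% of all. They were TBL41, at -4.13 ± 0.84 (adjusted p = 0.0146), XTH18, at -2.50 ± 0.60 (adjusted p = 0.0321), and GH9B7, at -1.24 ± 0.31 (adjusted p = 0.0413). The difference between CMP and fenclorim changed with time in XTH16, at -1.73 ± 0.47 (adjusted p = 0.0425). It was the 1 member that passed, and 0 went up, where 1.82% of all probe sets went up and 3.09% down. That of TBL41 passed whichever array was left out. Those of XTH18, GH9B7 and XTH16 were lost without 7, 12 and 12 of the 18 arrays taken singly, with adjusted p up to 0.0978, 0.105 and 0.124. For XTH16 these included replicate 2 of acetone at 4 h and at 24 h, outside its comparison, which left the value at -1.73. Without the 3 arrays that lay apart 8 members went up and 3 down in the test for fenclorim, where 11.9% and 18.5% of all probe sets did.

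The 27 named family genes that did not pass the filter were EXPA7, EXPA21, EXPA24, EXPB2, EXPB5, EXLA3, XTH20, XTH21, XTH26, XTH29, GH9A3, GH9A4, GH9B5, GH9B6, GH9B11, GH9B12, GH9B16, GH9B17, GH9B18, GH9C3, TBL15, TBL19, TBL20, TBL21, TBL26, TBL42 and TBL43. With no filter, 21, 23, 22 and 24 of all 64 genes fell and 2, 1, 2 and 2 rose in the 4 comparisons with acetone, where 16.5%, 18.6%, 14.7% and 17.2% of 22746 probe sets fell and 9.40%, 9.14%, 9.26% and 11.4% rose. XTH29 (AT4G18990) rose in each of them, at 2.89 ± 0.73, 2.33 ± 0.73, 2.95 ± 0.73 and 2.54 ± 0.73, with signals of 0.478 to 4.29 in acetone, 8.69 to 16.5 in fenclorim and 5.65 to 19.1 in CMP. All 12 compound arrays lay above all acetone arrays. TBL15 (AT2G37720) rose with CMP at 24 h, 3.26 ± 1.06 (adjusted p = 0.0272), and stood at 14.1 to 20.4 in the 6 CMP arrays and at 0.410 to 6.32 in the 12 others. XTH26, EXPA7, XTH20, EXLA3 and GH9B18 had falls at these low signals, XTH26 in 3 of the comparisons.

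Other wall genes were taken from the annotation by symbol, for wall synthesis, pectin and wall proteins. Of 21 matches 7 were dropped because the symbol stands for another function, which was decided after the symbols had been seen, and 12 of the 14 kept were tested. With fenclorim 2 rose and 6 fell at 4 h, and 1 rose and 5 fell at 24 h, where 14.4% and 25.0% of all probe sets rose and fell at 4 h and 14.2% and 27.7% at 24 h. With CMP 0 rose and 5 fell at 4 h, and 1 rose and 6 fell at 24 h, beside 13.8% and 23.3% of all at 4 h and 17.3% and 25.7% at 24 h. THE1, a receptor kinase that senses the state of the wall, fell with fenclorim, at -2.40 ± 0.18 and -2.04 ± 0.18 on the log2 scale, and with CMP, at -1.85 ± 0.18 and -2.09 ± 0.18. CSLC5 and CSLC04, of the family that makes the xyloglucan backbone, fell too. CSLC5 was at -1.19, -1.38, -1.84 and -2.37, and CSLC04 at -1.58, -2.21, -0.84 and -1.81, for fenclorim and then CMP at the 2 times. BGAL16, named as a beta-galactosidase, rose with fenclorim at 4 h, 1.99 ± 0.41 (adjusted p = 0.0011), and CSLD2, a cellulose synthase-like gene, was higher with fenclorim at both times (0.64 and 0.74) and with CMP at 24 h (0.65). Between the compounds CSLC5 was lower with CMP at both times, at -0.65 and -0.99.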

How the data were processed

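Total RNA from 18 root culture samples was measured on 1-colour ATH1 arrays. The authors deposited linear intensity signals, 1 for each probe set on each array. They came from MAS5 in GCOS, per the submitters' processing notes. No source used here gives the version or the scaling target. The 2% trimmed mean of every array was 100.01. MAS5 corrects for background, and the lowest signals (down to 0.0102) give large and uncertain log2 differences. Detection calls were not used here, and all sample columns of the table were used. Of 22810 probe sets, 64 controls were left out. Of the other 22746, 13513 were listed with 1 gene, 503 with several and 8730 not at all. A further 4 family probe sets with several genes were not used. Locus names matched the RefSeq table of TAIR10.1 for all 37 members. No promoter or protein sequence is shown.

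Signals were transformed to log2. Probe sets above the 40th percentile of their array in at least 3 arrays were tested with 1 mean per group in limma 3.58.1 (R 4.3.3, eBayes with an intensity trend), with Benjamini-Hochberg adjustment over all of them. The comparisons of both compounds with acetone at a time share the same 3 acetone arrays. Group and replicate came from the labels. Same-numbered arrays did not deviate together (12 of 45 same-numbered pairs of arrays correlated over 0.1, mean -0.04), so replicates were not paired. Values in every array are given, per family, for the gene with the highest mean level, those with the largest called rise and fall in each comparison with acetone, the largest called difference between compounds and those called in opposite directions. TBL41 was added after its values were seen. The members and lists were chosen with earlier results of these data known. The test was tried on simulated data. The alternatives were quantile normalization, median centring, an offset of 16, no filter or a 60th percentile filter, other variance settings, a replicate block and each array left out. Leaving out 3 arrays together was added after seeing the data. Tables were made in pandas 2.3.3 with numpy 2.4.6 under Python 3.11.15, and figures in matplotlib 3.10.9.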

Additional observations from a re-analysis of the deposited data

Results flagged for a closer look

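The effect of CMP differed between the times in 3 members. In TBL41 the difference from acetone was -2.86 at 24 h and 1.27 at 4 h, a change of -4.13 ± 0.84 (adjusted p = 0.0146) in limma, the lowest array being CMP 24 h replicate 3 at 1.11. In XTH18 it was -0.19 and 2.31, a change of -2.50 ± 0.60 (adjusted p = 0.0321). In GH9B7 it was -2.62 and -1.38, a change of -1.24 ± 0.31 (adjusted p = 0.0413). In XTH16 the difference between CMP and fenclorim was -0.42 at 24 h and 1.31 at 4 h, a change of -1.73 ± 0.47 (adjusted p = 0.0425).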

How the results depend on the processing

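Of 89 calls against acetone, 61 held under each of the 28 other settings in which their gene was tested. The other 28 were lost under at least 1. The stricter filter tested only 24 members, so calls of the remaining members were not tried under it. The cause was not tested for any change given here. Counts of members in this section stand without the share of all probe sets, which moved with the setting too. With fenclorim at 4 h 25.0% of all fell as deposited, 11.5% after median centring and 27.6% without the 3 arrays that lay apart. A changed count is therefore not particular to these families. With no filter, 2 of the 64 named family genes rose with fenclorim at 4 h, 1 at 24 h, and 2 with CMP at each time. These counts include XTH29 in each comparison and TBL15 with CMP at 24 h, which are not members. Quantile normalization and median centring each gave 1 member higher with fenclorim at 24 h and 1 higher with CMP than fenclorim at 24 h. An offset of 16 gave 2 higher with CMP at 4 h (XTH18 and TBL41) and 1 higher in CMP against fenclorim at 24 h. At an adjusted p under 0.01, 13 members fell with fenclorim at 24 h, 4 were lower and 0 higher in CMP against fenclorim at 24 h, and 0 passed for either change with time that had passed. Requiring 2-fold left 1 lower in CMP against fenclorim at 4 h, and 3 lower and 1 higher at 24 h. Fitting only the arrays compared gave 2 higher with CMP at 4 h, 2 and 0 higher in CMP against fenclorim at 4 h and 24 h, and 5 lower in the change of the CMP effect with time. Without the intensity trend that last count was 1. The change with time of CMP against fenclorim gave 2 lower under quantile normalization and the stricter filter, and 0 with the offset, no filter, only the arrays compared or no intensity trend.

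With the replicate number as a block, 19, 22, 21 and 23 members fell against acetone and 0 passed in the change with time of CMP against fenclorim, and 4 calls were lost and 1 was gained in all. Same-numbered arrays did not deviate together, so this is not a paired result.

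Leaving out 1 array at a time gave 16 to 24, 18 to 23, 16 to 23 and 19 to 29 lower members in the 4 comparisons with acetone, and 1 to 2 higher with CMP at 4 h. For CMP against fenclorim it gave 2 to 5 higher and 2 to 3 lower at 4 h, and 0 to 2 higher and 4 to 12 lower at 24 h. For the changes with time it gave 0 to 3 higher and 0 to 2 lower for fenclorim, 1 to 4 lower for CMP, and 0 to 7 lower for CMP against fenclorim. Arrays outside a comparison were among those left out, which changed its errors and adjusted p but not its difference. Without the 3 arrays that lay apart, a setting chosen after seeing the data, 8 members were higher in CMP against fenclorim at 4 h and 15 lower at 24 h. In the changes with time 8 were higher and 3 lower for fenclorim, and 9 lower for CMP against fenclorim. With them left out 22 member values turned sign over all comparisons, and 2 of these were called there: GH9B13 in CMP against fenclorim at 24 h became -0.87 (limma adjusted p = 0.0261), and the change of the fenclorim effect with time in GH9B8 became 2.75 (adjusted p = 0.000448). Each gene had 1 probe set, so a second brightest probe set gave no value. With 3 arrays per group, and low signals in several members, small differences could not be resolved.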
